A study of Mus musculus with 3 samples.

Results

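RXRA peaks of blood stem cells that only 1 of the 2 progenitor libraries also held fell into 2 sets of different kinds. The peaks were chosen by the authors' peak calls in the 3 libraries: an HSC peak was a member where it overlapped, by at least 1 bp, a peak of exactly 1 of the 2 MPP lists. Of the 4047 HSC peaks, 957 met this rule (23.6%). Of these, 585 (14.5% of HSC peaks) overlapped MPP replicate 2 alone and 372 (9.19%) overlapped MPP replicate 1 alone. They are called here the replicate 2 set and the replicate 1 set. A further 2493 HSC peaks lay in both MPP lists and 597 in neither. The replicate 2 set lay mostly at the starts of genes, at promoters rich in the CCAAT motif of the factor NF-Y, and the replicate 1 set lay mostly inside and between genes.

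RXRA is a nuclear receptor that pairs with other receptors, among them those for retinoic acid, oxysterols and fatty acids. The pairs are known to bind repeats of the core site AGGTCA, often far from gene starts. NF-Y is a factor of 3 subunits that binds CCAAT, a box found upstream of many housekeeping and cell cycle genes, where it helps keep promoters open.

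The series mapped RXRA by CUT&RUN, in which an antibody brings a nuclease to the bound protein and the released DNA is sequenced. There was 1 HSC library (Lin-cKit+Sca1+CD48-CD150+, 10000 cells) and 2 MPP libraries (Lin-cKit+Sca1+CD150-, 50000 cells each). All were sorted from bone marrow of C57BL/6 mice about 10 months old, pooled from 3 or 4 animals. All cells received bexarotene, a synthetic RXR agonist, at 1 mM as the labels give it for 1 h. The mice are labelled VavCre+ and WT under genotype and Rxrabfl/fl (WT) in the protocols, so whether the floxed alleles were recombined is not settled by the labels. Vav-Cre acts across blood cells. The MPP gate does not use CD48, so it takes in several progenitor types. The labels do not say whether the MPP libraries came from separate pools, no untreated library and no control-antibody library is used here, and with 1 HSC library no comparison below has a replicate check or a test. Intervals on shares are exact binomial and those on fragment counts exact Poisson, both 95%, and they cover counting error only.

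The lists differ in depth. The genome-wide background recovered from the peak values was 1.08 fragments in MPP replicate 2, 2.87 in MPP replicate 1 and 0.604 in HSC, and the lists hold 19570, 29848 and 4047 peaks in that order. The lowest pileup called, a pileup being the number of fragments stacked at the summit, was 5.55, 3.48 and 8.28 times background in the same order. Names of the HSC and MPP replicate 1 peaks share a tag that those of MPP replicate 2 lack, and its part in the difference between the sets was not tested. None of 34 marker genes of HSC, MPP and other marrow cells had an HSC peak at a gene end, so the peaks do not check the sorted cell types.

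Promoters under some of the member peaks are printed as examples. Each sequence runs from 250 bases before to 50 after a start of transcription (RefSeq, GRCm38.p6, the same assembly as mm10), 5′ to 3′ on the strand of the gene. Capitals mark CCAAT or its reverse complement ATTGG. From the replicate 2 set, Hip1, Evi5l, Hsd17b12, Aldh6a1 and Tbc1d10b are the 5 of highest HSC fold with a promoter under the peak, Aldh6a1 sharing its peak with Lin52. Stk11, Mxd4 and E2f3 were picked with their values known, for their roles in stem cell metabolism, the MYC network and the cell cycle.
Hip1 (chr5:135545073-135545372, minus strand): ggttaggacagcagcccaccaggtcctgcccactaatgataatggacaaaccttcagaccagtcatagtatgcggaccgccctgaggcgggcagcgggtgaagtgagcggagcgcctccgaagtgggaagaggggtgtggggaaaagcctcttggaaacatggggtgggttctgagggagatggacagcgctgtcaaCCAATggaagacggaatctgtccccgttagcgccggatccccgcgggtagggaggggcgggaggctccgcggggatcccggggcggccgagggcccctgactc
Evi5l (chr8:4166317-4166616, plus strand): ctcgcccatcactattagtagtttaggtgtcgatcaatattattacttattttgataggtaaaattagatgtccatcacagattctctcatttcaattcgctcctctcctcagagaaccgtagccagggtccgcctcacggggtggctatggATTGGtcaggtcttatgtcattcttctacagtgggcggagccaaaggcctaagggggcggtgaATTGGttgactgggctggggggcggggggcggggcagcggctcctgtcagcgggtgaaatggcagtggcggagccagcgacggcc
Hsd17b12 (chr2:94157860-94158159, minus strand): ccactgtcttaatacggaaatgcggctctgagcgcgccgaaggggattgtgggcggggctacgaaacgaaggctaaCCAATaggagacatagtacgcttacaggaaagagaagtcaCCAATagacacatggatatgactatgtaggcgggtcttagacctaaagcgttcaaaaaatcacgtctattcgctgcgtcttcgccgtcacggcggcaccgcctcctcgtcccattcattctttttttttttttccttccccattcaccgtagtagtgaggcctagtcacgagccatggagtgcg
Aldh6a1 (chr12:84450975-84451274, minus strand): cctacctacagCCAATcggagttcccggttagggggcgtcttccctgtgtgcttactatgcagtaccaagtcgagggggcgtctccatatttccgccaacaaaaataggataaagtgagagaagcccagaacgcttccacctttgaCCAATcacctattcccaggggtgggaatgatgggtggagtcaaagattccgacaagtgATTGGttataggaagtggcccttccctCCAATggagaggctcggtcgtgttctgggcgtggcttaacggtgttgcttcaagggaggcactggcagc
E2f3 (chr13:29986014-29986313, minus strand): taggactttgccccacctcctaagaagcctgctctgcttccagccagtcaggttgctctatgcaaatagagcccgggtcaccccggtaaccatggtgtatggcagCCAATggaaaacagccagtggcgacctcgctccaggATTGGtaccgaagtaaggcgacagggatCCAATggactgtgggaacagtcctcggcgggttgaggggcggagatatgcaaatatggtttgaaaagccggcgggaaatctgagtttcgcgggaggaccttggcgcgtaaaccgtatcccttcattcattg
Mxd4 (chr5:34187661-34187960, minus strand): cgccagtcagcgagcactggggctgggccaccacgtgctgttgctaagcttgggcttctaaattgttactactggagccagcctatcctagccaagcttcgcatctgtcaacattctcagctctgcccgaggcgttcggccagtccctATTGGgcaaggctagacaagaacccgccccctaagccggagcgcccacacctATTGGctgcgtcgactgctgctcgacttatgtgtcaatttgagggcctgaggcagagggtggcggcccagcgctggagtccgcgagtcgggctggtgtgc
Stk11 (chr10:80115545-80115844, plus strand): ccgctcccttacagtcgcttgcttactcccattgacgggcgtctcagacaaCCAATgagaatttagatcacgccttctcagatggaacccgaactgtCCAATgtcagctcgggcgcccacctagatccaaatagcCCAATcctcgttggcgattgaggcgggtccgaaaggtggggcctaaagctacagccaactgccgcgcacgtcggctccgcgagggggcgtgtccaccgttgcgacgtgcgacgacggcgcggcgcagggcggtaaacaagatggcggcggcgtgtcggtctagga
Tbc1d10b (chr7:127208419-127208718, minus strand): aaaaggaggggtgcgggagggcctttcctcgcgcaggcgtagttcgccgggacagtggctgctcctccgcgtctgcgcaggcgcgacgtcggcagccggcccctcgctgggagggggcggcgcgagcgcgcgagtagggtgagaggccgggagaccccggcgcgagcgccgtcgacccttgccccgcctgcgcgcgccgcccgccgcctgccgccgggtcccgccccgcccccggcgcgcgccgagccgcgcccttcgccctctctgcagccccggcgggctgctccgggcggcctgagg
From the replicate 1 set, Osgepl1 and Psmd6 are the 2 of highest HSC fold with a promoter under the peak.
Osgepl1 (chr1:53313374-53313673, plus strand): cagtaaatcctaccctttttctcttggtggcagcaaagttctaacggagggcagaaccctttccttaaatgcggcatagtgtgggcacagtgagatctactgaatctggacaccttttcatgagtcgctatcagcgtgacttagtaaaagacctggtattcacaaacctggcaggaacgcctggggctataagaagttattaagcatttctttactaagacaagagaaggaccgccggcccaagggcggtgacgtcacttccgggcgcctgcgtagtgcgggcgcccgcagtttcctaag
Psmd6 (chr14:14120896-14121195, minus strand): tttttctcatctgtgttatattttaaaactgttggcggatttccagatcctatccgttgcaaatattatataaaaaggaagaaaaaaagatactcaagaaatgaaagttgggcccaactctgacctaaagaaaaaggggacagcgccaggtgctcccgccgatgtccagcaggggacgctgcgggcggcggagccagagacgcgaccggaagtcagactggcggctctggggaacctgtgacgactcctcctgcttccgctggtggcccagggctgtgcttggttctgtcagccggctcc
Of the 8 promoters from the replicate 2 set, 7 hold the motif and 6 hold it 2 or more times, and Tbc1d10b is the exception. As Stk11, Mxd4 and E2f3 were picked with their values known, this count does not stand for the set. Over its promoters 64.1% hold the motif and 45.7% hold it 2 or more times. The motif centres at Aldh6a1 lie 237, 102, 44 and 17 bases upstream of the start, and those at E2f3 lie 143, 107 and 79 bases upstream. Neither promoter from the replicate 1 set holds it.

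The sets differed in location. Taking as a gene end the 1 kb on either side of the first or last base of a protein-coding gene, the HSC summit was at one for 382 of 585 peaks of the replicate 2 set (65.3%, 61.3 to 69.2), against 60 of 372 of the replicate 1 set (16.1%, 12.5 to 20.3). The share was 37.7% (35.8 to 39.7) for HSC peaks in both MPP lists, 14.6% (11.8 to 17.7) for those in neither, and 36.3% for all HSC peaks. The peaks shared with MPP replicate 2 alone were thus at gene ends more often than the peaks found in every library, and the replicate 1 set less often, at a share whose interval overlaps that of the peaks found in HSC alone. The gene starts account for most of it: 344 summits of the replicate 2 set (58.8%, 54.7 to 62.8) and 52 of the replicate 1 set (14.0%, 10.6 to 17.9) lay within 1 kb of a start of transcription, where 32.6% of all HSC peaks lay. With both MPP lists held to as many peaks as the HSC list, taking those of highest fold, the gene-end shares were 51.3% and 25.3%, and with a window of 5 kb 73.5% and 31.2%.

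Outside gene ends the order was reversed. Summits elsewhere inside a protein-coding gene made up 16.1% of the replicate 2 set and 42.7% of the replicate 1 set. Summits between genes made up 13.8% and 33.1% of the sets in that order, and summits in another kind of gene 4.79% and 8.06%. Exons and introns were not told apart.

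**Figure D1:**
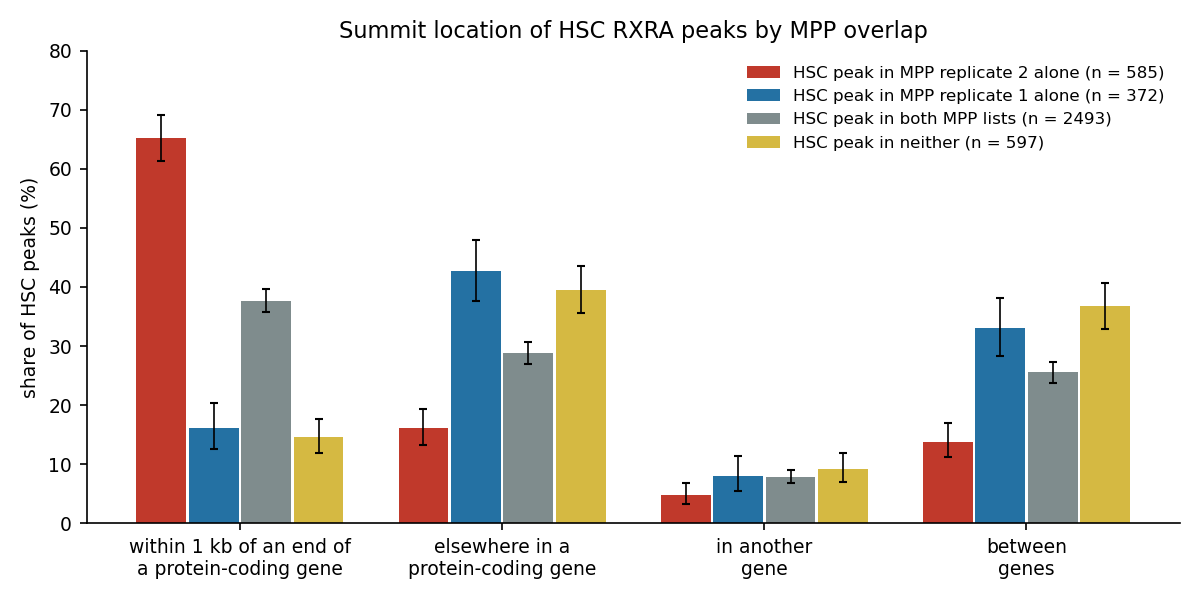
Share of HSC peaks (vertical axis, percent) by summit location, for peaks in MPP replicate 2 alone, MPP replicate 1 alone, both MPP lists and neither, with 95% exact binomial intervals. The replicate 2 set stands at 65.3% at gene ends and the replicate 1 set at 16.1%, with peaks in both lists between them at 37.7%.

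The difference was present at each strength of HSC peak. HSC peaks were put in 5 bins of equal size by fold enrichment, the authors' ratio of pileup to local background at the summit. The ratio was read as having 1 added to both values, so it is lower than pileup over background. From the lowest to the highest bin the gene-end share of the replicate 2 set was 70.2, 65.2, 69.2, 68.7 and 55.0%. That of the replicate 1 set was 17.2, 18.5, 16.7, 20.0 and 2.27%, the last being 1 of 44 peaks. In each bin the interval of the replicate 2 set lay above that of the peaks in both lists, whose shares were 33.0, 44.2, 43.7, 42.2 and 27.2%. The replicate 1 set took less of the highest bin, 5.43% (3.97 to 7.22), than of the lowest, 12.2% (10.0 to 14.7). The replicate 2 set took 12.8% of the lowest (10.6 to 15.3) and 16.2% of the highest (13.7 to 18.9), with overlapping intervals.

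**Figure D2:**
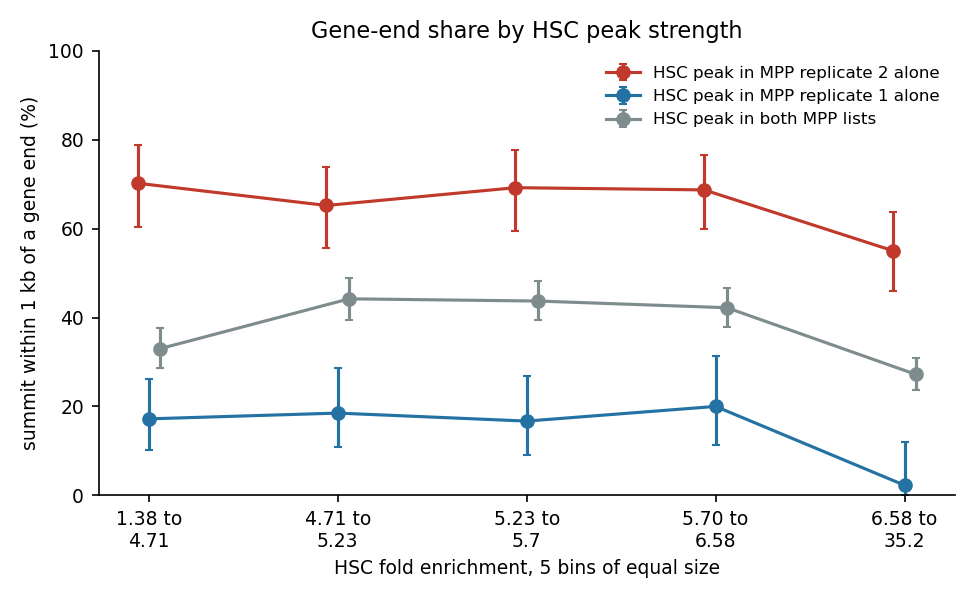
Share of peaks with the summit within 1 kb of a gene end (vertical axis, percent) in 5 bins of HSC fold enrichment (horizontal axis, a ratio), with 95% exact binomial intervals. The line of the replicate 2 set lies above that of peaks in both lists and the line of the replicate 1 set below it in each bin.

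The replicate 2 set was somewhat stronger in HSC. The median HSC fold was 5.61 in the replicate 2 set (quartiles 4.93 and 6.52) and 5.29 in the replicate 1 set (4.69 and 5.92), beside 5.61 for peaks in both lists and 4.99 for those in neither. The median pileup was 9 fragments in the replicate 2 set and 8 in the replicate 1 set, and the median width 338 and 297 bp. At such pileups a single peak carries wide counting error: 9 fragments have an interval of 4.12 to 17.1.

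The MPP counterparts stood in the middle of their own lists. Ranked by fold, the median counterpart of the replicate 2 set was at percentile 55.5 of the MPP replicate 2 list, and that of the replicate 1 set at percentile 53.8 of the MPP replicate 1 list. Counterparts of HSC peaks in both lists were at 76.7 and 76.8 in the same lists. Counterparts of the replicate 2 set had a median pileup of 15 fragments, 13.9 times background, and those of the replicate 1 set 18.5 fragments, 6.45 times background.

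The list that lacks a member gives no value there, only that no peak was called. Expressed over background, 286 of the 372 counterparts of the replicate 1 set (76.9%, 72.3 to 81.1) reached the lowest level called in MPP replicate 2, and 22 (5.91%) reached its median level. All 585 counterparts of the replicate 2 set were above the median level called in MPP replicate 1, a deeper library with a lower threshold. That count reflects the thresholds of the lists as well as the peaks.

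**Figure D3:**
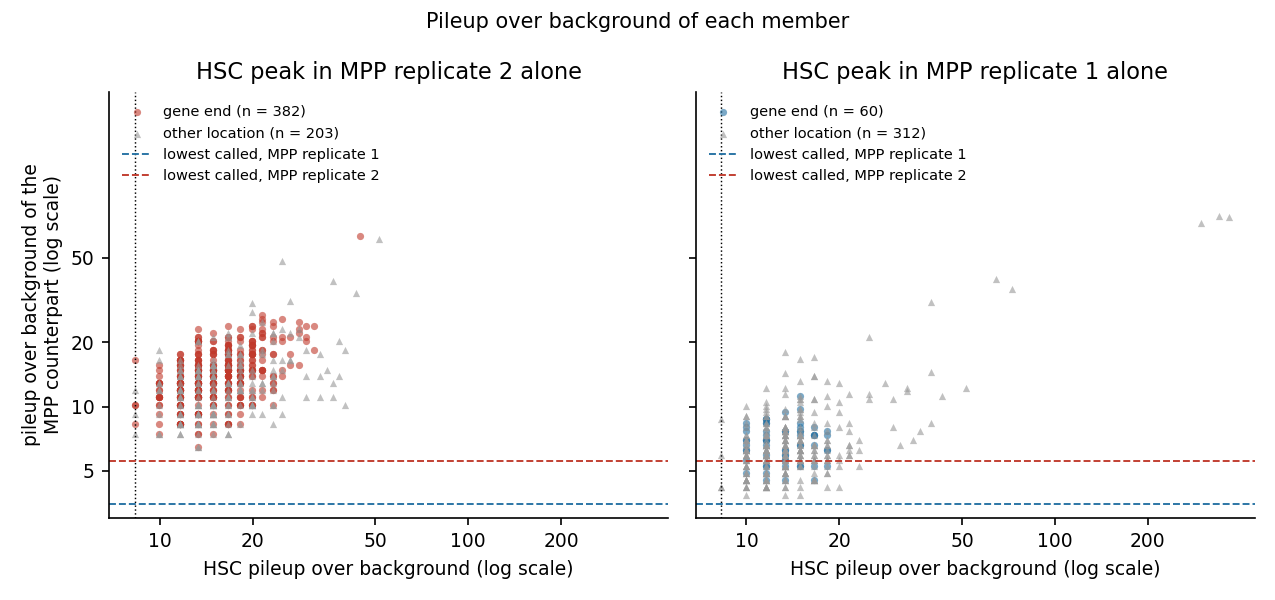
Pileup over genome-wide background in HSC (horizontal axis, log scale) and in the MPP list that holds the counterpart (vertical axis, log scale), 1 point per member, for the replicate 2 set (left) and the replicate 1 set (right). Dashed lines mark the lowest level called in each MPP list and the dotted line the lowest called in HSC, 8.28, and gene-end peaks of the replicate 1 set all lie below 20 times background in HSC.

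A few members of the replicate 1 set stood apart. The 3 with the highest HSC pileups, of 222, 206 and 179 fragments, lay between genes and had folds of only 2.38, 1.99 and 1.82, with a local background that reached 103 fragments. No peak of the replicate 2 set passed 31 fragments in HSC.

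The summits of members and counterparts lay near each other, which the overlap rule itself favours. The median distance from the HSC summit to the counterpart's summit was 68 bp in the replicate 2 set and 61.5 bp in the replicate 1 set, and the counterpart covered a median of 96.3% and 84.0% of the HSC peak. HSC peaks in both lists matched more closely. Their medians were 44 bp and 98.8% with MPP replicate 2, and 49 bp and 93.1% with MPP replicate 1.

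Most members were more than 1 kb from any peak of the list that lacks them, and the rule leaves out every overlap. The median gap was 12683 bp in the replicate 2 set and 20525 bp in the replicate 1 set. A gap of at most 1 kb was found for 75 peaks (12.8%) of the replicate 2 set and 27 (7.26%) of the replicate 1 set, and a gap of at most 50 bp for 12 and 2 peaks. In the replicate 2 set, the smallest gaps to MPP replicate 1 were 0 bp near Zbtb18 and 3 bp near Por, and the smallest overlaps kept were 6 bp near Dgke and 7 bp near Mapre3. In the replicate 1 set, the smallest gaps were 27 bp near Usp2 and 34 bp near Clip1, and the smallest overlaps 10 bp near Slc45a1 and 15 bp near Traf1. Just outside the rule, an HSC peak near Spry2 missed MPP replicate 1 by 6 bp and counted as found in neither list, and 1 near 6430550D23Rik met it by 1 bp and counted as found in both.

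A gene is called marked here where a peak came within 1 kb of one of its ends. Peaks shared with MPP replicate 2 alone marked 478 of 21900 protein-coding genes (2.18%) and the replicate 1 set 72 (0.329%), while any HSC peak marked 8.21%. No gene was marked by both sets: 0 of the 72, with an interval of 0 to 4.99% that covers the 2.18% of all genes. Of the 478 genes, 107 (22.4%, 18.7 to 26.4) were also marked by a different peak of MPP replicate 1, and of the 72 genes 11 (15.3%, 7.88 to 25.7) by a different peak of MPP replicate 2. For the rest the gene itself was marked in 1 MPP library only. Over all 21900 protein-coding genes the shares were larger, with 9022 marked by MPP replicate 1 and 7874 by MPP replicate 2. Members were chosen for having no overlapping peak of the other MPP list, which by itself lowers the 22.4% and 15.3%. Whether the genes themselves differ between the MPP libraries was not tested. Peaks that reached the ends of at least 2 genes were 95 of 384 in the replicate 2 set (24.7%, 20.5 to 29.4) and 8 of 64 in the replicate 1 set (12.5%, 5.55 to 23.2).

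Among gene-end peaks of the replicate 2 set, Hip1, which links clathrin coats to actin, led with an HSC fold of 9.42 and a pileup of 17 fragments (9.90 to 27.2), and its counterpart in MPP replicate 2 had a fold of 6.32 and also 17 fragments, while the nearest peak of MPP replicate 1 was 7451 bp away. The HSC summit was 219 bp upstream of the start. A single peak lay at Tbc1d10b, which switches off Rab GTPases, and at the upstream end of Mylpf, a muscle myosin light chain, with an HSC fold of 9.15 and 19 fragments (11.4 to 29.7) and 26 fragments (17.0 to 38.1) in MPP replicate 2. Mylpf was also marked by another peak of MPP replicate 1.

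Evi5l, another gene of Rab regulation, had 18 fragments in HSC and 22 in MPP replicate 2, with HSC fold 9.04. Hsd17b12, an enzyme that lengthens fatty acids, had 18 fragments in HSC and 26 in MPP replicate 2, where its fold of 10.1 stood at percentile 96.8 of the list. It is thus 1 of the strong peaks of that list, and the nearest peak of MPP replicate 1 was 20503 bp away. Aldh6a1, which breaks down valine, and Lin52, a subunit of the DREAM complex that represses cell cycle genes, share 1 peak, with 19 fragments in HSC and 20 in MPP replicate 2.

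Ankrd50, which acts in endosomal recycling, had 17 fragments in HSC and 25 in MPP replicate 2, and the nearest peak of MPP replicate 1 was 341437 bp away. Sp1 encodes a factor that binds GC boxes. Its peak had 18 fragments in HSC and 23 in MPP replicate 2, but a peak of MPP replicate 1 lay only 42 bp away and Sp1 was marked in that list too, so it is a member by a narrow margin. Copz1, a coatomer subunit, had 15 and 22 fragments in HSC and MPP replicate 2. Ap2a1, a clathrin adaptor subunit that shares its peak with Tsks, had 15 and 16.

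The strongest gene-end peaks of the replicate 1 set were weaker in HSC. Gp9, part of the platelet receptor for von Willebrand factor, led with an HSC fold of 6.76 and 11 fragments (5.49 to 19.7), and its counterpart in MPP replicate 1 had 15 fragments, with a fold of 3.79 in the lower part of that list. Osgepl1, which modifies mitochondrial tRNA, had 9 fragments in HSC (4.12 to 17.1) and 23 in MPP replicate 1 (14.6 to 34.5). Psmd6, a lid subunit of the proteasome, had 9 in HSC and 24 in MPP replicate 1. The HSC summits of these last 2 lay 9 and 178 bp downstream of the start.

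The other leading genes of the replicate 1 set included the ubiquitin enzymes Otub1 and Mgrn1, the phosphatase Ppm1a, the Golgi protein Tmem115 and the Rab activator Dennd5b, with HSC folds of 5.97 to 6.08 and 9 to 11 fragments. Mgrn1 shares its peak with Nudt16l1, a regulator of the repair factor 53BP1, and had the highest MPP pileup among these, of 28 fragments (18.6 to 40.5). The summits at Ppm1a, Nudt16l1, Otub1 and Dennd5b lay 45 to 218 bp upstream of the start. 1110002E22Rik, Gm32687 and Spef1l complete the 12.

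The 26 gene lists held 1588 distinct genes, of which the replicate 2 set marked 66 (4.16%, 3.23 to 5.26) and the replicate 1 set 6 (0.378%, 0.139 to 0.821), beside 2.18% and 0.329% of all protein-coding genes. Among genes that MYC activates, the replicate 2 set marked 5 of 63 and the replicate 1 set none, while peaks in both lists marked 16. These 5 are genes of ribosome assembly and RNA processing: Tcof1, Imp4, Rrp9, Exosc5 and Las1l. Imp4, of the small-subunit processome, had 11 fragments in HSC (5.49 to 19.7) and 16 in MPP replicate 2, and Rrp9, which works with the U3 particle, had 10 and 22. Their counterparts stood at percentiles 51.7 and 85.1 of the MPP replicate 2 list.

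The MYC network holds factors that pair or compete with MYC for MAX. Of its 17 genes, 3 were marked by the replicate 2 set (17.6%), 0 by the replicate 1 set and 2 by peaks in both lists (11.8%). Over all protein-coding genes the shares were 2.18%, 0.329% and 5.24% in that order, and these counts are of few genes. The 3 genes of the replicate 2 set are antagonists of MYC. Mxd4 had 13 fragments in HSC (6.92 to 22.2) and 28 in MPP replicate 2 (18.6 to 40.5), with the nearest MPP replicate 1 peak 8447 bp away. Mxd1 had 9 in HSC and 15 in MPP replicate 2, with the nearest MPP replicate 1 peak 8348 bp away. Mnt had 12 and 21, but a peak of MPP replicate 1 lay 18 bp away and Mnt was marked in that list, so it too is a member by a narrow margin.

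Of regulators of blood stem cells, the replicate 2 set marked 4 of 49 (8.16%), the replicate 1 set 0, and peaks in both lists 1 (2.04%). Over all protein-coding genes the shares were 2.18%, 0.329% and 5.24% in that order. These are counts of few genes, from a list chosen with earlier results known. Stk11, the LKB1 kinase that stem cells need for energy balance, had 12 fragments in HSC (6.20 to 21.0) and 19 in MPP replicate 2 (11.4 to 29.7), with its summit 155 bp upstream of the start. Kmt2a, a histone methyltransferase that maintains Hox genes, had 10 and 12. Egr1, a factor of stem cell quiescence, had 14 and 15, with an MPP replicate 1 peak 728 bp off. The HSC fragment counts of these 3 genes lie within each other's intervals.

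In the cell cycle list the replicate 2 set marked 2 of 47 (4.26%, beside 2.18% of all genes). E2f3, a driver of S phase genes, had 16 fragments in HSC (9.15 to 26.0) and 19 in MPP replicate 2, and Cdkn2d, a CDK4 and CDK6 inhibitor that shares its peak with Kri1, had 11 and 16. In the replication list it marked 3 of 44 (6.82%): Gins2 of the replicative helicase, with 14 and 27 fragments, Orc6 and Rpa3. In the repair list it marked 4 of 55 (7.27%), among them the checkpoint kinase Chek2, with 13 and 16 fragments, Fancb and Xpc. The replicate 1 set marked none in the 3 lists, which is near its 0.329% of all genes. Peaks in both MPP lists marked more of each: 10.6% of the cell cycle, 22.7% of the replication and 14.5% of the repair list. Their share of all genes was 5.24%.

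Of 86 cytosolic ribosomal protein genes, the replicate 2 set marked 6 (6.98%, beside 2.18% of all genes), among them Rps25, Rps3 and Rps23 with 8 or 9 fragments in HSC, and the replicate 1 set none. Of 56 translation initiation genes the replicate 2 set marked 4 (7.14%), and the replicate 1 set 0. Peaks in both MPP lists marked 11.6% of the ribosomal protein and 10.7% of the initiation genes, beside 5.24% of all genes. The replicate 1 set marks so few of all genes, 0.329%, that a count of 0 in lists of this size is near its share over all genes. Eif2ak3, the PERK kinase of the unfolded protein response, had 11 fragments in HSC and 14 in MPP replicate 2, and its promoter holds 6 NF-Y motifs. Eif5a, Eif4a1 and Eif2s1 had 8 to 10 in HSC, and their promoters hold 0, 3 and 0 motifs. Those of Rps25, Rps3 and Rps23 hold 0, 0 and 1.

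Each set marked 1 of 78 mitochondrial ribosomal protein genes, Mrps18b in the replicate 2 set and Mrpl19 in the replicate 1 set. Of 84 oxidative phosphorylation genes the replicate 2 set marked 3 (3.57%, beside 2.18% of all genes), Cox7a2l, Atp5g1 and Ndufs8, and the replicate 1 set 0. Peaks in both MPP lists marked 11.9% of the 84, beside 5.24% of all genes. The Atp5g1 peak had 10 fragments in HSC and 17 in MPP replicate 2, over a promoter with 4 NF-Y motifs. The promoters of Cox7a2l and Ndufs8 hold 0 and 3.

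Neither set marked any of the 29 genes of RXR and its partner receptors, or any of 21 retinoic acid target genes. Any HSC peak marked 2 of the 29 and 1 of the 21. Counts of 0 in lists of this size are near the 2.18% and 0.329% of all genes that the sets marked. Of 34 LXR target and lipid genes the replicate 2 set marked 2 (5.88%, beside 2.18% of all genes), among them Sqle, an enzyme of cholesterol synthesis, with 10 fragments in HSC and 9 in MPP replicate 2. Of 31 fatty acid oxidation genes it marked 1 (3.23%), Acaa1a, with 9 and 13 fragments. The replicate 1 set marked none of these and 1 of 20 coregulator genes, Gps2, a corepressor subunit and a single gene, with 8 fragments in HSC and 17 in MPP replicate 1. Peaks in both MPP lists marked 11.8% of the LXR and lipid genes and 16.1% of the fatty acid oxidation genes. Their share of all genes was 5.24%.

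The 419 Zfp zinc finger genes were marked near the background, 12 by the replicate 2 set (2.86%) and 1 by the replicate 1 set (0.239%). Zfp654 led with 17 fragments in HSC and 27 in MPP replicate 2, followed by Zfp143, a factor of housekeeping promoters, with 15 in both. Of 16 circadian clock genes the replicate 2 set marked 2 (12.5%), Per1 and Per2, beside 2.18% of all genes. Peaks in both MPP lists marked none of the 16 and 5.24% of all genes. Both counts are of few genes. Per2 had 8 fragments in HSC and 22 in MPP replicate 2, and Per1 had 12 and 16.

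Of the remaining lists, the replicate 2 set marked 3 of 83 Mediator and RNA polymerase II genes, 3 of 78 splicing factors and 2 of 40 lineage factors and receptors, and the replicate 1 set none. Med26, a Mediator subunit that recruits elongation factors, had 12 fragments in HSC and 11 in MPP replicate 2. Hnrnpc, which binds nascent RNA, had 8 and 22, at a promoter with 4 NF-Y motifs. The promoters of Srsf5 and Hnrnpd, the other splicing factors marked, hold 0. Tgfbr1, a receptor for TGF-beta, which holds stem cells quiescent, had 7 and 16. Of 47 genes of nuclear transport, the replicate 2 set marked 3, among them the exportin Xpo1 with 16 fragments in HSC (9.15 to 26.0) and 17 in MPP replicate 2, and the replicate 1 set marked Ipo13. Stat3, a transducer of cytokine signals, was the 1 of 38 interferon and inflammation genes in the replicate 2 set, with 10 and 21 fragments. Of 39 proteasome genes the replicate 2 set marked 0 and the replicate 1 set 1, Psmd6, and of 49 lysosome and autophagy genes each set marked 1, Rheb in the replicate 2 set and Neu1 in the replicate 1 set. The replicate 2 set marked 1 of 56 chromatin modifier genes (1.79%), Kmt2a, and 1 of 36 aminoacyl-tRNA synthetase genes (2.78%), Qars, and the replicate 1 set none. Counts of 0 or 1 gene are too few to set apart from the 2.18% and 0.329% of all genes.

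Promoter sequence also differed between the sets at the full list lengths. The 300-base windows of 396 promoters lay under peaks of the replicate 2 set, 48 under the replicate 1 set, 973 under peaks in both lists and 62 under peaks in neither, and the table used holds 21263 promoters in all. The NF-Y motif, CCAAT on either strand, was in 254 of 396 promoters of the replicate 2 set (64.1%, 59.2 to 68.9) and in 11 of 48 of the replicate 1 set (22.9%, interval reaching 37.3). It was in 41.8% (38.7 to 45.0) of promoters under peaks in both lists, 56.5% (43.3 to 69.0) under peaks in neither and 38.2% of all promoters. Repeated motifs separated the sets further: 45.7% (40.7 to 50.8) of the replicate 2 set held at least 2, against 4.17% (0.509 to 14.3) of the replicate 1 set, 16.0% of promoters under peaks in both lists and 12.6% of all promoters. At least 3 were held by 25.8%, 2.08%, 4.83% and 3.73% of the same 4 sets in that order. With both MPP lists held to the length of the HSC list, the shares with the motif were 51.6% (46.1 to 57.1) in the replicate 2 set and 39.4% (28.0 to 51.7) in the replicate 1 set, and their intervals overlap. A match says only that the letters are there, and NF-Y itself was not measured.

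MPP peaks with no HSC counterpart, which the rule did not use, showed the same order for the motif. It was in 690 of 1248 promoters under MPP replicate 2 peaks that neither other list held (55.3%, 52.5 to 58.1), in 590 of 2032 under such MPP replicate 1 peaks (29.0%, 27.1 to 31.1) and in 37.6% under peaks of both MPP lists. These sites and the members come from the same MPP libraries, so they are not a second replicate. For location the contrast was small there: 25.2% (24.1 to 26.4) of such MPP replicate 2 peaks and 20.3% (19.7 to 21.0) of such MPP replicate 1 peaks lay at gene ends, beside 39.9% of peaks in both MPP lists.

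**Figure D4:**
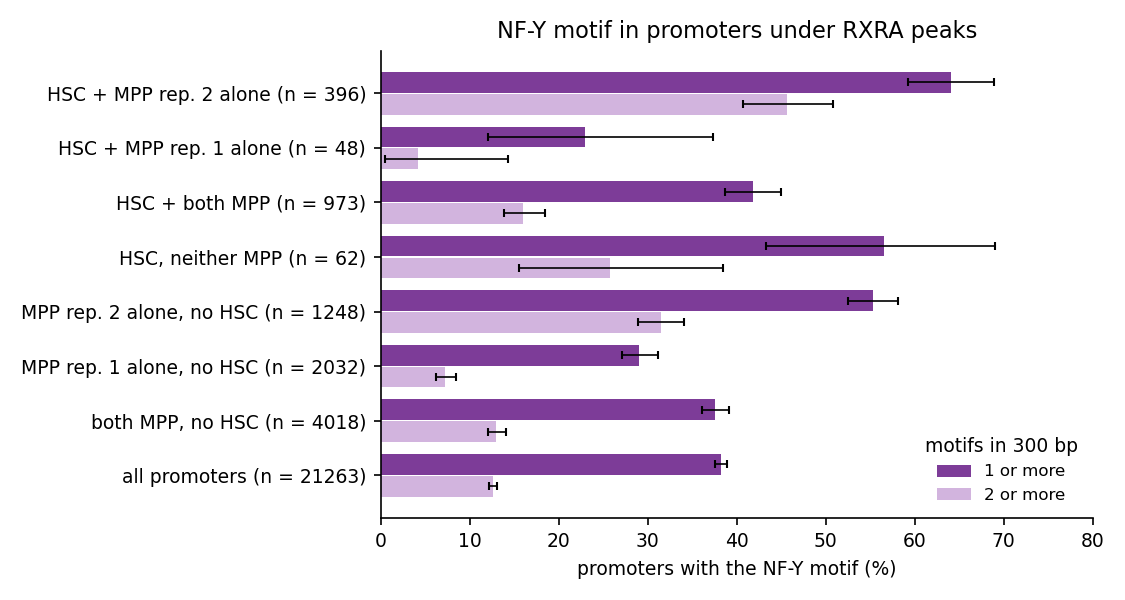
Share of promoters (horizontal axis, percent) with at least 1 and at least 2 NF-Y motifs in the 300-base window, for promoters under each set of peaks and all promoters, with 95% exact binomial intervals. Promoters under MPP replicate 2 peaks alone stand at 64.1% with an HSC peak and 55.3% without, and those under MPP replicate 1 peaks alone at 22.9% and 29.0%.

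Within bins of GC content the order was the same. The median GC content was 63.3% in the replicate 2 set, 61.2% in the replicate 1 set, 62.0% under peaks in both lists and 56.3% over all promoters, and CCAAT is poorer in G and C than these promoters. Among promoters of 50 to 60% GC the motif was in 81.4% (73.6 to 87.7) of the replicate 2 set, against 48.0% (42.4 to 53.6) under peaks in both lists and 41.1% of all promoters. Above 70% GC the values were 37.1%, 28.3% and 22.5%, with overlapping intervals for the first 2, as up to 50% GC. The replicate 1 set has too few promoters to divide this way.

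The motif was most frequent under the strongest HSC peaks. From the lowest to the highest bin of HSC fold it was in 49.3, 64.0, 61.9, 64.2 and 79.0% of promoters of the replicate 2 set. Under peaks in both lists it was in 41.2, 40.8, 38.1, 44.8 and 45.7% over the same bins. The intervals of the sets overlap in the lowest bin, at 37.2 to 61.4 and 33.7 to 49.0, and lie apart in the highest, at 68.5 to 87.3 and 37.6 to 54.0.

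CCAAT boxes are known to lie upstream of gene starts. In the replicate 2 set they were densest 50 to 75 bases upstream, at 21.7 motifs per 100 promoters and 25 bases against 10.1 under peaks in both lists and fewer over all promoters. It stayed above both other sets out to 250 bases upstream, where it had 11.9 against 3.60 and 3.58. Downstream of the start, at 25 to 50 bases, the 3 sets were at or below 2 motifs per 100 promoters.

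**Figure D5:**
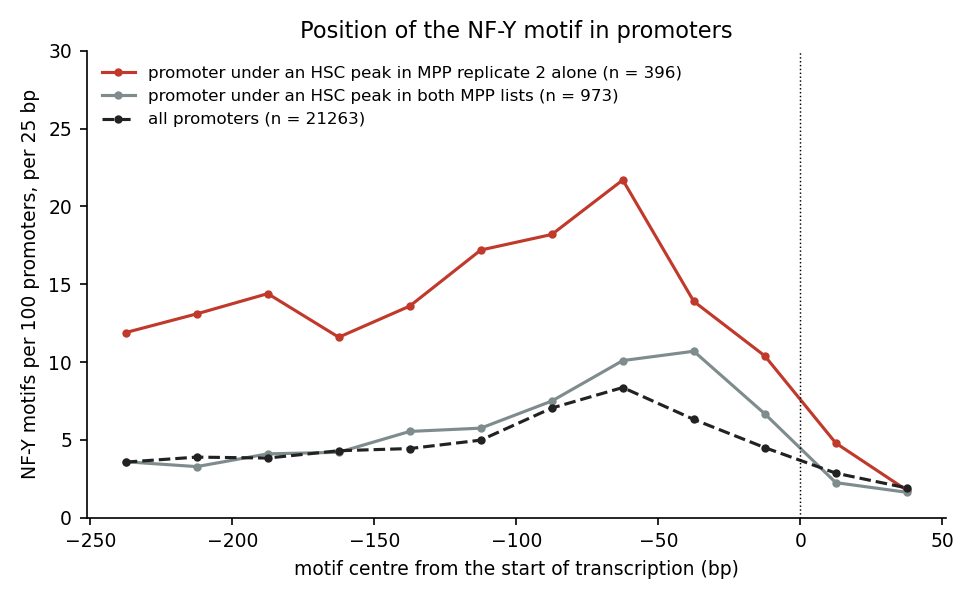
NF-Y motifs per 100 promoters in steps of 25 bp (vertical axis) by the distance of the motif from the start of transcription (horizontal axis, bp), for promoters under the replicate 2 set, under HSC peaks in both MPP lists and all promoters. The replicate 2 set peaks at 21.7 and lies above the other lines upstream of the start.

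The HSC summits of the replicate 2 set lay upstream of the start, near the motifs. Over the 344 summits within 1 kb of a start, the median position was 131 bp upstream in the replicate 2 set (79.9% upstream, 75.3 to 84.0), against 16 bp upstream for the 52 of the replicate 1 set (53.8%, 39.5 to 67.8) and 60 bp upstream for peaks in both lists (67.5%, 64.2 to 70.6). Where the promoter under the peak held the motif, the summit was a median of 46 bp from the nearest one in the replicate 2 set, 116 bp in the replicate 1 set and 72 bp under peaks in both lists. It lay within 50 bp in 53.2%, 36.4% (10.9 to 69.2) and 37.7% (32.6 to 43.0) of these in the same order, 116 of 218 in the replicate 2 set. Promoters with more motifs have a nearer one on that account alone.

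Of the 18 motifs searched, the NF-Y motif differed most between the sets. The GC box GGGCGG was in 81.3% (77.1 to 85.0) of promoters of the replicate 2 set, 64.6% (49.5 to 77.8) of the replicate 1 set, 72.7% under peaks in both lists and 46.2% of all promoters. The ETS motif CCGGAAG was in 19.2%, 29.2%, 25.6% and 11.6% of these 4 sets. The E-box CACGTG, which MYC binds with MAX, was in 10.4%, 6.25%, 10.7% and 7.84%, with overlapping intervals for the member sets. The receptor core site AGGTCA was in 8.84% (6.23 to 12.1), 10.4% (3.47 to 22.7), 10.5% (8.63 to 12.6) and 14.7% of them, so in none of the 3 sets under HSC peaks more often than over all promoters. Its direct repeats with 1, 4 or 5 bases between were in none of the members' promoters, which allows up to 0.927% of the replicate 2 set and 7.40% of the replicate 1 set, and over all promoters they were in 10, 0 and 1. These exact forms are stricter than what the receptors bind. The peaks between and inside genes, the larger part of the replicate 1 set, have no sequence here.

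Away from gene ends both sets held peaks stronger in HSC than any at a gene end named above. In the replicate 2 set, the highest folds were 14.8 at chr5:60042811-60043147, with 23 fragments in HSC (14.6 to 34.5) and 22 in MPP replicate 2, and 14.8 at chr10:37820301-37820702, with 24 and 20. A peak 22367 bp from Ankle1 on chromosome 8 had 26 fragments in HSC and 37 in MPP replicate 2, and 1 on chromosome 17, 173334 bp from Kcnh8, had 22 and 42, at percentile 99.7 of that list. In the replicate 1 set, a peak 14687 bp from Kcnd2 led with a fold of 14.3 and had 26 fragments in HSC (17.0 to 38.1) and 32 in MPP replicate 1. Others lay between genes near Cd300ld and Ktn1, and 1 inside Acacb, which makes malonyl-CoA to restrain fatty acid oxidation, with 19 fragments in HSC and 19 in MPP replicate 1. The 8 of these 10 peaks with counterparts above percentile 74 were strong in the library that held them, and the nearest peak of the other MPP list was at least 2106 bp away from each.

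Over the chromosomes the replicate 2 set took from 7.48% of HSC peaks on chromosome 14 (3.79 to 13.0) to 21.1% on chromosome 15 (15.1 to 28.2), with 20.2% on chromosome 7, leaving out the few peaks of chromosome Y and the mitochondrial genome. The replicate 1 set took 6.83% on chromosome 15 (3.46 to 11.9) to 13.8% on chromosome X (6.15 to 25.4), and its intervals overlap throughout.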

How the data were processed

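RXRA CUT&RUN was measured in 1 HSC and 2 MPP libraries. MACS2 2.1.4, Bowtie2 2.3.4.1, Trim Galore 0.4.2 and cutadapt 1.9.1 are listed in the submitters' processing notes with build mm10. Their settings, duplicate handling and any control were not given in the sources used here. Each library has 1 peak list, which the authors deposited in the narrowPeak layout, with a fold ratio of pileup to local background, −log10 p and −log10 q values, and a score that was not used. The fold ratio was taken as pileup plus 1 over local background plus 1. With the pileup held to whole numbers, a pileup and local background were solved per peak from the fold ratio and −log10 p. The solution gave back the deposited −log10 p to within 0.001 for 99.98% of HSC peaks and at least 99.99% of MPP peaks. The lowest recovered background stands for that of the genome. Depth is known only through these values.

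Overlaps of at least 1 bp were counted in Python 3.11.15 with pandas 2.3.3, numpy 2.4.6 and scipy 1.17.1 and checked against bedtools 2.31.1. Scripts recovered the classes, gene ends, pileups and motifs of simulated data, in which pileups followed the same fold formula. Gene ends, strands and promoters came from RefSeq tables of GRCm38.p6. The promoter table covers 17492 of 21900 protein-coding genes, 300 bases each, and the planned motif search in peaks was run on promoters because no genome sequence was used. A location is that of the HSC summit, and a promoter lies under a peak that overlaps it.

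The members, the gene lists and the motifs were chosen with earlier results of these data known, and the NF-Y motif was singled out after its values were seen. Named genes are, for each member set, the 12 of highest HSC fold at a gene end, up to 4 per list, the 5 strongest peaks elsewhere and those nearest the overlap threshold, leaving out the Y and mitochondrial chromosomes, and a few genes that the rule takes are not reported here. Alternatives changed the q threshold, the overlap rule, list lengths, the window, the gene set and the libraries used. The 1% of HSC peaks of highest fold was also left out.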

Additional observations from a re-analysis of the deposited data

How the results depend on the processing

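The replicate 2 set was at gene ends more often than the replicate 1 set under each of the 10 alternatives that keep both MPP lists, by 26.0 to 49.2 percentage points. The smallest difference, 51.3% against 25.3%, came with both MPP lists held to the 4047 peaks of highest fold. With MPP replicate 1 held to the length of replicate 2, the replicate 2 set numbered 957 peaks with a gene-end share of 55.7% and a median HSC fold of 5.44. The gene-end shares of the replicate 2 and replicate 1 sets were 71.1% and 22.6% with all annotated genes, and 73.5% and 31.2% with a window of 5 kb. The share of the replicate 2 set was 60.2% with 500 bp and 58.8% with starts of transcription alone.

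Without MPP replicate 1 the replicate 2 set becomes all 3078 HSC peaks in that list, with 43.0% at gene ends and the NF-Y motif in 48.3% of promoters. Without MPP replicate 2 the replicate 1 set becomes 2865 peaks, with 34.9%, 40.9% and a median HSC fold of 5.56. The NF-Y motif alternatives were chosen after seeing the data. The motif share of the replicate 2 and replicate 1 sets was 51.6% and 39.4% with both lists held to 4047 peaks, beside 30.8% under peaks in both lists, and the intervals of both sets then overlap. It was 45.7% in the replicate 2 set with a 6-letter form, CCAATC, beside 14.6% in the replicate 1 set and 23.0% under peaks in both lists. The median HSC fold of the 2 sets was 5.76 and 5.60 with both lists held, and 5.69 and 5.54 with q at or below 0.01. The cause of these shifts was not tested.

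For these counts, shares and medians, the alternatives not named here stayed within the interval of the value reported or within 1.5 times the count. No paired analysis was made, as there is 1 HSC library, its label gives no replicate number and no result comes from a test. Depth is known only through the peak values, and 1 HSC library gives no spread between samples.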

Other observations

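A few members lay within 500 bp of a small RNA gene. In the replicate 2 set these were the tRNA genes n-TTagt7, n-TAagc9 and n-TIaat16, the microRNA gene Mir5627, and the snRNA genes Gm26243, Gm23444 and Gm25101, with HSC pileups of 8 to 12 fragments. In the replicate 1 set they were the microRNA genes Mir34c, a member of a family that p53 induces, and Mir6538, the snoRNA gene Gm25129 and the snRNA gene Gm23567, with 7 to 9. Mir34c had 7 fragments in HSC and a fold of 3.54 in MPP replicate 1.

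The replicate 1 set and the HSC peaks in neither MPP list were alike in their gene-end shares, 16.1% and 14.6%, with overlapping intervals. The NF-Y motif was in 22.9% of promoters under the replicate 1 set, with an interval reaching 37.3, and in 56.5% of the 62 promoters under peaks in neither list (43.3 to 69.0). The last share lies nearer the 64.1% of the replicate 2 set.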
